A study of Mus musculus with 35 samples.

Results

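The 38 genes described here carry out or control the cell's answer to unfolded protein and to amino acid shortage, and were measured in the hypothalamus of fed and fasted mice. They were taken by gene name from a list of 38, out of 49568 genes counted in every library. All 38 had reads and passed the filter on low counts, as did 18063 genes in all. By role they were 14 chaperones and folding factors of the endoplasmic reticulum (ER), 4 genes of ER-associated degradation, 10 stress sensors and transcription factors, 5 target genes of the stress response, and 5 enzymes of serine, one-carbon and proline metabolism.

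The 35 libraries came from the hypothalamic block of male B6/J mice, read here as 1 mouse per library since the labels name no pooling, taken at zeitgeber time 16, where zeitgeber time 0 is lights on. Fed groups had food at will, and fasted groups had been without food for the 16 h before collection. Control mice, called wild type in the series' design text, gave 10 fed and 10 fasted libraries. Mice labelled PER2-S662D (S662D below), in which the clock protein PER2 carries the S662D change, gave 5 fed and 5 fasted libraries, and mice labelled Per2 ko gave 5 fasted libraries and no fed ones. No Cre line or other transgene is named, and how the S662D protein is expressed and the ages of the mice are not given in the sources used here.

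When unfolded protein collects in the ER, the sensors IRE1 (Ern1), PERK (Eif2ak3) and ATF6 switch on chaperones, folding enzymes and the degradation machinery, partly through the spliced form of XBP1. PERK and the amino acid sensor GCN2 (Eif2ak4) both phosphorylate a translation initiation factor. This slows protein synthesis while favouring translation of ATF4, which turns on genes for amino acid import, asparagine and serine synthesis and, under lasting stress, Ddit3, Trib3 and Chac1. Much of this control acts on splicing, translation and cleavage of proteins, which a count of reads per gene does not record.

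The promoters of the called genes and of 2 reference members are shown first. They were searched for the letters by which these pathways are usually recognised. Hspa5 stands for the ER chaperones and Asns, asparagine synthetase, for the ATF4 targets. Each sequence is the 250 bases before the gene's start in RefSeq (build GRCm38.p6), on the gene's own strand, and capitals mark an exact match to a motif. Coordinates are chr2:34771840-34772089 (+) for Hspa5, chr8:84846932-84847181 (-) for Calr and chr8:94386179-94386428 (+) for Herpud1. They are chr6:7693210-7693459 (-) for Asns, chr3:50443614-50443863 (-) for Slc7a11 and chr19:15925060-15925309 (-) for Psat1.
Hspa5: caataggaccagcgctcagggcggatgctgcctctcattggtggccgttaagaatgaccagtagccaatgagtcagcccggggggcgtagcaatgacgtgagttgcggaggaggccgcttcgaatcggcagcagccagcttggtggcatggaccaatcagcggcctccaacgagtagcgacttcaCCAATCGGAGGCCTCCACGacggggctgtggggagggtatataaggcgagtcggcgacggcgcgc
Calr: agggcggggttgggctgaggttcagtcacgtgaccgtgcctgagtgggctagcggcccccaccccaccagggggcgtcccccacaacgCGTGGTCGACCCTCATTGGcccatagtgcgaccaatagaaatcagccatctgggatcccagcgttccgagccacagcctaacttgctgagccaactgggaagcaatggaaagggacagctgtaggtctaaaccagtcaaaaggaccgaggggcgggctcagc
Herpud1: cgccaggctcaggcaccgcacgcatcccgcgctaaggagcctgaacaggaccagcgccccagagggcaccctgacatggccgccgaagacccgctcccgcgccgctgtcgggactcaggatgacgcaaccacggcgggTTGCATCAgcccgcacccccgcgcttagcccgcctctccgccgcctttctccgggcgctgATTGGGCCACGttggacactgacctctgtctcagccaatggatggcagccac
Asns: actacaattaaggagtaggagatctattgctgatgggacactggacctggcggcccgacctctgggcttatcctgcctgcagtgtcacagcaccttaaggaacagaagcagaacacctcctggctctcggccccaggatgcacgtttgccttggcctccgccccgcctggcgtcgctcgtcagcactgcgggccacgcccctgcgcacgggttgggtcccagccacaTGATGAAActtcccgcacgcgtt
Slc7a11: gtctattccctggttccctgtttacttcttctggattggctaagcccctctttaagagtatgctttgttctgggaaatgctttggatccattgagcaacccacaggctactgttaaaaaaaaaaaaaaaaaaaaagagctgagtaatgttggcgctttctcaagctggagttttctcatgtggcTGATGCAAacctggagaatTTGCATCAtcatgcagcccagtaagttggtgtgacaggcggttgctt
Psat1: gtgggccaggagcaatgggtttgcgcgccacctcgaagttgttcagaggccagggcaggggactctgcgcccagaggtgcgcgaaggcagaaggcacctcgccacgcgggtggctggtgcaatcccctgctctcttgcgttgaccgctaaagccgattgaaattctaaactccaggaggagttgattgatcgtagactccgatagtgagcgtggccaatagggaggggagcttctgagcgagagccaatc

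Hspa5 held 1 ER stress element (CCAAT and CCACG with any 9 bases between) from -65 to -47 relative to the start, and Calr held 1 on the other strand from -162 to -144. Herpud1 held an ER stress element II (ATTGG, any 1 base, CCACG) from -52 to -42 and an amino acid response element (TGATGNAA) on the other strand from -112 to -105. Asns held 1 amino acid response element from -23 to -16, and Slc7a11 held a facing pair, from -66 to -59 and from -47 to -40. The Psat1 window lies inside the locus counted here, whose annotated end on the upstream side is position 15947337 of chromosome 19, so it shows the RefSeq start and not that of the whole counted locus. Psat1 held none of the motifs searched, which says only that these letters are not in this window. The Hspa5 and Asns windows also run into their counted loci, whose upstream ends are position 34771970 of chromosome 2 and 7693254 of chromosome 6. The elements given for Hspa5 and Asns lie inside those loci.

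Over windows of 300 bases that run 50 bases past the start, on both strands, 35 of the 38 members had an entry, with none for Hyou1, Atf6 and Manf. The ER stress element was found in 7 of the 12 chaperones with a window (Hspa5, Hsp90b1, Pdia6, Calr, Canx, Dnajc3 and Creld2) and in Syvn1, the ubiquitin ligase of ER degradation. It was in 0.119% of all 32851 windows. The ER stress element II was in Dnajb11 and Herpud1 and in 0.0365% of all windows. The amino acid response element was in 4 of the 5 stress targets (Trib3, Chac1, Asns and Slc7a11), in Herpud1 and in Atf3, against 3.97% of all windows. The unfolded protein response element (TGACGTGG) was in 0 members and 0.676% of windows. No matches in the members overlapped one another, and a match describes letters, not a bound site.

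Total counts per library ran from 17959586 to 37027342, and each group's totals overlapped every other's. All 15 hypothalamic markers were found in every group, with summed levels from 628 to 890 CPM (counts scaled to library size). Choroid plexus markers summed to between 23.7 and 1550 CPM and passed 100 CPM in 10 of the 35 libraries, spread over every group. Per2 itself fell in S662D mice by 0.59 on the log2 scale when fed and by 0.55 when fasted (edgeR quasi-likelihood test, adjusted p = 1.18e-07 and 6.8e-07). In the libraries labelled Per2 ko it ran from 28.2 to 33.4 CPM against 26.1 to 33.1 in fasted controls, so whole-gene counts do not show the label. Library numbers in the file headers put controls 1 to 5, controls 6 to 10, the Per2 ko libraries and the S662D libraries in separate ranges, and a genotype effect and an effect of the range cannot be told apart here. Replicates 2, 3 and 4 of both S662D groups carry an additional final digit in that number, whose meaning is not stated. Values with and without these libraries stand beside the main results they move.

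Levels per kilobase of exon spanned a wide range. The lectin chaperones calreticulin (Calr) and calnexin (Canx), which hold newly glycosylated proteins, averaged 100.7 and 88.5 CPM per kilobase over the 35 libraries. Hspa5, which encodes the main ER chaperone BiP, averaged 81.3, Atf4 averaged 68.8, and the disulfide isomerase Pdia3 and the chaperone Hsp90b1 averaged 64.6 and 62.2. At the other end, the sensor kinase Ern1 averaged 1.8, the transcription factor Atf3 0.434 and the pseudokinase Trib3 0.25 CPM per kilobase. Trib3 had only 4 to 24 reads per library and Atf3 9 to 45, so their ratios are the least precise of the 38.

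By role, the median level was 25.3 CPM per kilobase for the chaperones, 15.6 for the degradation genes, 7.78 for the serine, one-carbon and proline enzymes, 7.31 for the sensors and factors and 4.25 for the stress targets. The spread over all 35 libraries (coefficient of variation) ran from 3.73% to 20.5% among the chaperones and reached 34.8% among the stress targets. Phgdh, the first enzyme of serine synthesis, is uncertain because 47.8% of its 50-base words also occur in other transcripts, and 15.7% of the exon length of Hsp90b1 overlaps other genes. Counting was without strand, per the file headers.

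**Figure D1:**
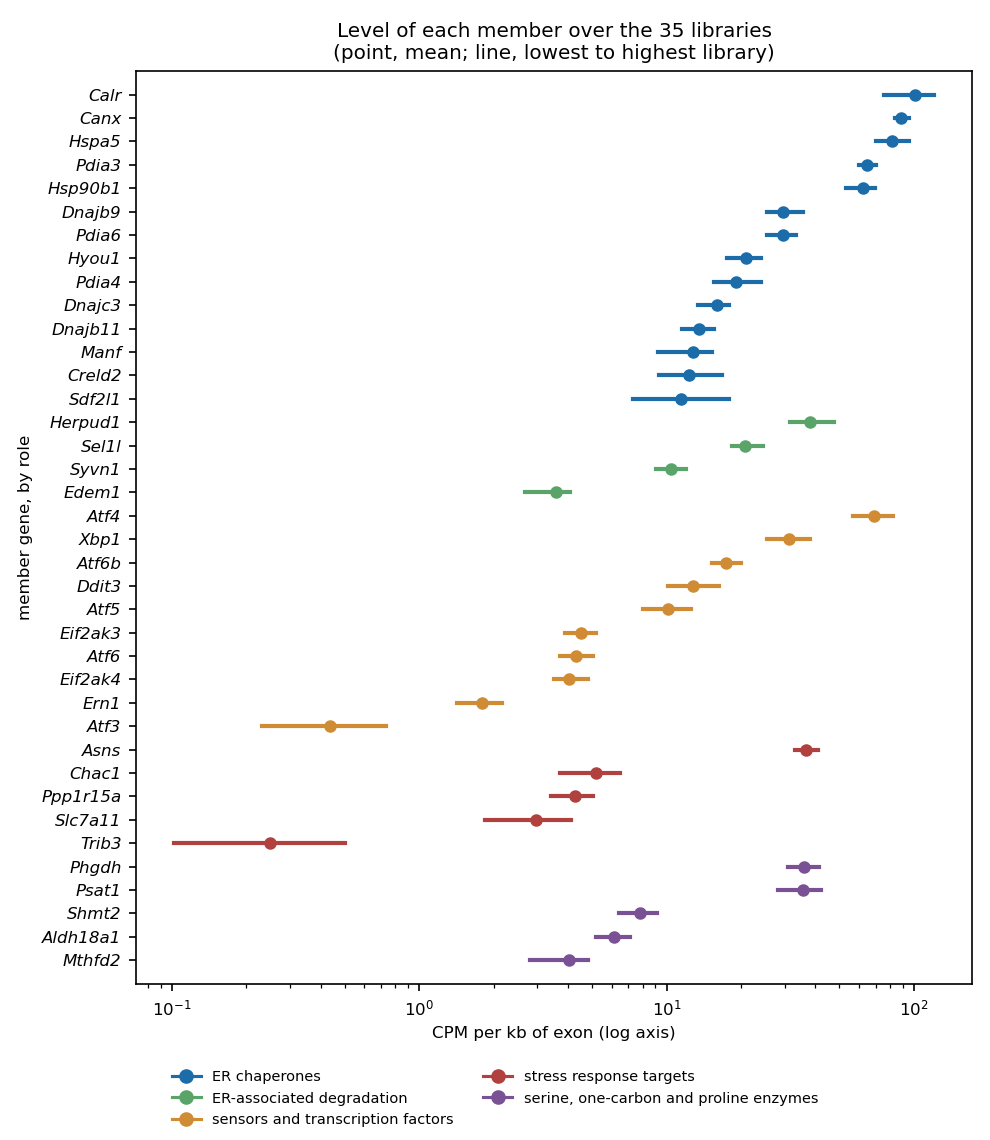
Level of each of the 38 members in CPM per kilobase of exon on a log axis, grouped and coloured by role. Points are means over the 35 libraries and lines run from the lowest to the highest library, from Calr at 100.7 down to Trib3 at 0.25.

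Fasting moved few of these genes in control mice. Psat1 and Herpud1 rose, Slc7a11 fell, and the other 35 did not pass the test. That is 3 of 38 called (adjusted p below 0.05), where 3.88% of all genes tested were called, 2.2% higher and 1.68% lower. At an unadjusted p below 0.05 it was 8 of 38 against 13.3% of all genes, and the members' median log2 fold change was -0.02 against 0.00 over all genes. In a bulk tissue block, fewer cells of a type and less RNA per cell cannot be told apart.

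Psat1, phosphoserine aminotransferase, catalyses the second step of serine synthesis and lies on the minus strand at chr19:15904678-15947337 (mm10). Fed controls had 129 CPM at the lowest, 140 at the median and 150 at the highest, and fasted controls had 148, 165 and 179. Of the 10 fasted controls, 9 stood above every fed control. The log2 fold change was 0.22 (SE 0.04, adjusted p = 3.6e-05, edgeR quasi-likelihood test), and it was 0.24 in controls 1 to 5 and 0.20 in controls 6 to 10 alone (adjusted p = 0.0014 and 0.0217). The call held in all 31 alternative analyses, left-out libraries included.

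Herpud1, an ER membrane protein that helps assemble the degradation complex, lies at chr8:94386438-94395377 on the plus strand. Fed controls ran from 76.9 through a median of 84.3 to 86.5 CPM, and fasted controls from 81.8 through 95.8 to 100. Of the fasted controls, 8 of 10 were above every fed control. The difference on the log2 scale was 0.16 (SE 0.05, adjusted p = 0.025). The rise was 0.23 in controls 1 to 5 (adjusted p = 0.021) and 0.09 in controls 6 to 10 (adjusted p = 0.51). The call was lost on leaving out fed control 10 or fasted control 1, 4 or 5, with log2 fold changes from 0.15 to 0.18 over all 20 such fits, and without the libraries above 100 CPM of choroid plexus markers (0.16, adjusted p = 0.171).

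Slc7a11, the cystine and glutamate exchanger that feeds glutathione synthesis, lies at chr3:49892526-50443614 on the minus strand. Fed controls ran from 38.6 through 47.3 to 57.3 CPM and fasted controls from 25.6 through 37.4 to 43.1. Of the fasted controls, 7 of 10 were below every fed control. It fell by 0.35 on the log2 scale (SE 0.08, adjusted p = 0.00871). The log2 fold change was -0.56 in controls 6 to 10 (adjusted p = 0.0177) and -0.14 in controls 1 to 5 (adjusted p = 0.437), and without the choroid plexus libraries the log2 fold change was -0.36 (adjusted p = 0.068).

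Slc7a11 carries the pair of amino acid response elements shown above and moved opposite to Psat1. Astrocytes are known to express both. Astrocyte markers summed to 2150 CPM at the median in fed controls and 2190 in fasted controls, with 1 of 6 called higher and 1 lower. Microglial markers went from a median of 174 to 159 CPM with 2 of 6 called lower, and endothelial markers from 203 to 189 with 2 of 6 called lower. Their part in these results was not tested.

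Fasting in S662D mice gave 2 of 38 called, where 2.64% of all genes were called, and both were higher, against 1.8% of all genes. At an unadjusted p below 0.05 it was 9 of 38 against 14.3% of all genes. Psat1 stood at 140, 125, 120, 124 and 136 CPM in the 5 fed mice and at 148, 167, 168, 161 and 164 in the 5 fasted mice. Every fasted S662D mouse was above every fed one. How many of all genes tested do the same was not counted. On the log2 scale Psat1 was 0.33 higher in fasted mice (SE 0.05, adjusted p = 3.94e-05). It was 0.43 in the libraries with the additional digit and 0.18 in those without (adjusted p = 0.93), and the call held in the other 20 alternatives. Astrocyte markers summed to 1950 to 2150 CPM in fed and 2140 to 2370 in fasted S662D mice, with 2 of 6 called higher. Oligodendrocyte markers summed to 7470 to 8940 fed and 8930 to 9620 fasted, with 1 of 6 called higher. No defining marker of either was at 0, and their part in these results was not tested.

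Herpud1 stood at 77.4, 77.7, 73.8, 74.4 and 75.6 CPM in fed S662D mice and at 74.4, 111, 90.1, 92.3 and 81.3 in fasted ones. Fasted S662D mouse 1 lay within the fed range and the other 4 lay above it. The log2 fold change was 0.24 (SE 0.06, adjusted p = 0.024). It was 0.38 with the additional digit and 0.03 without. The call was lost in 10 of 21 alternatives, among them leaving out fed mouse 3 or 4 or fasted mouse 2, 3 or 4. Without fasted mouse 2, the highest, the log2 fold change was 0.15 (adjusted p = 0.23).

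Slc7a11 stood at 39.6, 54.5, 47, 47.6 and 43.2 CPM in fed and at 36.3, 32.7, 45.9, 39.6 and 29.6 in fasted S662D mice. The groups overlapped, and the log2 fold change of -0.34 (SE 0.12) had an adjusted p of 0.126. In the libraries labelled Per2 ko, which are all fasted, Psat1 stood at 165, 163, 166, 164 and 175 CPM, Herpud1 at 103, 108, 99.6, 93.2 and 105, and Slc7a11 at 31.7, 34.9, 35.6, 41.7 and 43.5. All 5 values of Psat1 lay inside the fasted control range, while 3 of 5 values of Herpud1 lay above it.

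**Figure D2:**
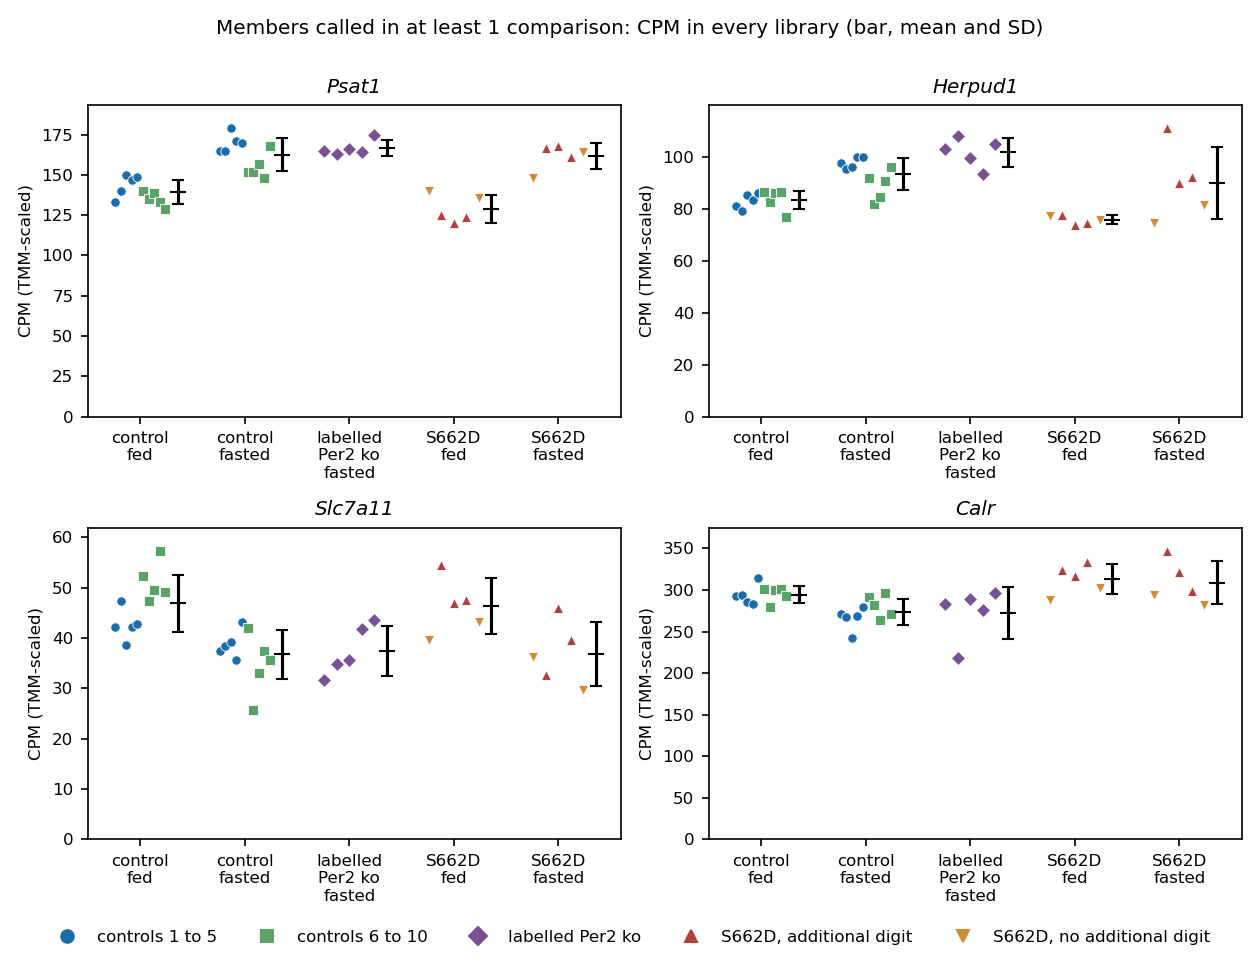
CPM (y axis, from 0) of the 4 members called in at least 1 comparison, Psat1, Herpud1, Slc7a11 and Calr, with 1 point per mouse by group, point shape and colour for the library set, and bars for the mean and SD. Every fasted S662D mouse is above every fed S662D mouse for Psat1, and the fed and fasted values of the other 3 genes overlap in both genotypes.

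The difference between the fasting responses of S662D and control mice, tested directly, was called for 0 of 38 members and for 0% of all genes. At an unadjusted p below 0.05 it was 3 of 38, against 6.37% of all genes, and DESeq2 called 0 members and 0% of all genes. For Psat1 the responses differed by 0.10 on the log2 scale (95% interval -0.03 to 0.23, adjusted p = 0.808), for Herpud1 by 0.08 (-0.08 to 0.24) and for Slc7a11 by 0.01 (-0.28 to 0.30). These intervals leave room for differences as large as the responses of Psat1 and Herpud1 in controls.

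Most ER chaperones were slightly below their fed level in fasted controls, none past the test. In controls 13 of the 14 log2 fold changes were below 0, with a median of -0.08. Against 13.3% of all genes, 4 of the 14 had an unadjusted p below 0.05. These were Pdia4 at -0.16 (adjusted p = 0.129) and Pdia6 at -0.08, both disulfide isomerases, Manf, a secreted ER factor, at -0.12 and Calr at -0.11. Hspa5 ran from 310 through 351 to 383 CPM in fed and from 297 through 317 to 366 in fasted controls, a log2 fold change of -0.09 (adjusted p = 0.453). Summed over the 14, chaperone reads were 2085 CPM ± 83.9 (SD, n = 10) in fed and 2011 ± 83.6 (n = 10) in fasted controls. The difference of these sums was not tested. In controls 1 to 5 alone 9 of the 14 were below 0 and in controls 6 to 10 alone 13. Pdia4 was called lower on leaving out fasted control 5 and with the replicate number as a block.

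In S662D mice 10 of 14 chaperones were below 0, with a median of -0.04 and Pdia4 lowest at -0.20 (adjusted p = 0.199). Their sum was 2145 CPM ± 84.1 (SD, n = 5) fed and 2077 ± 116 (n = 5) fasted. Cytosolic heat shock genes, which are no part of the ER set, were below 0 in 8 of 8 on fasting in both genotypes, with 4 called lower in controls and 2 in S662D mice. Their part in the chaperone values was not tested.

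Of the other degradation genes, the log2 fold changes on fasting were -0.01 and -0.04 for the adaptor Sel1l, -0.02 and 0.03 for the ubiquitin ligase Syvn1, and -0.03 and -0.05 for the mannosidase-like Edem1, in controls and S662D mice in turn. None passed the test, so the rise of Herpud1 was not matched by a call for the other 3 members of its role.

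The sensors Ern1, Eif2ak3, Eif2ak4, Atf6 and Atf6b moved by at most 0.12 on the log2 scale in either fasting comparison, and none was called. Xbp1, whose spliced form drives ER chaperones, was at -0.11 in controls and 0.03 in S662D mice (adjusted p = 0.339 and 0.901). The counts do not separate its spliced from its unspliced form. Ddit3, the factor CHOP, was at 0.06 and 0.09. For Ddit3 the sets of controls went opposite ways, at -0.19 in controls 1 to 5 (22.3 CPM fed and 19.7 fasted, adjusted p = 0.134) and 0.28 in controls 6 to 10 (20.8 and 25.2, adjusted p = 0.0654), neither called. Atf5 was at 0.07 and 0.08 and the sparsely read Atf3 at -0.33 and -0.06, none past the test.

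Atf4, the factor common to the PERK and GCN2 branches, showed no difference in controls, from 101 through 120 to 128 CPM fed and from 104 through 121 to 131 fasted (log2 fold change 0.02, 95% interval -0.09 to 0.12, adjusted p = 0.959). In S662D mice it stood at 126, 101, 102, 97.9 and 110 CPM fed and at 103, 121, 131, 141 and 121 fasted. The highest fed value (126) was above the lowest fasted one (103), and the log2 fold change was 0.20 (SE 0.07, adjusted p = 0.147). In the libraries with the additional digit it was 0.39 (adjusted p = 0.00174) and in those without it -0.07. The difference of the responses was 0.185 (unadjusted p = 0.042, adjusted p = 0.772), which did not pass.

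The 5 stress targets in S662D mice all had an unadjusted p below 0.05, against 14.3% of all genes. Of the 5, 4 were above 0 and Slc7a11 below it, and none was called. Trib3, an inhibitor of ATF4 signalling, was at 0.68 (SE 0.32, adjusted p = 0.305). It had only 4 to 24 reads per library over all libraries of the series. Ppp1r15a, the phosphatase subunit GADD34 that restores translation, was at 0.23, Chac1, which breaks down glutathione, at 0.22, and Asns at 0.11. In controls the same 4 were at -0.08, 0.03, 0.08 and 0.03. Within the control sets the direction turned: Ppp1r15a was at -0.20 in controls 1 to 5 and 0.27 in controls 6 to 10 (adjusted p = 0.146 and 0.0798), Trib3 at -0.45 and 0.27, and Chac1 at 0.17 and -0.02, none called. Ppp1r15a in S662D mice stood at 10, 12.1, 12.3, 11.6 and 11.6 CPM fed and 12.7, 14.4, 14.4, 11.9 and 14.1 fasted, with 4 of 5 fasted mice above every fed one. In the libraries with the additional digit Trib3 was at 0.96, Chac1 at 0.30, Asns at 0.17 and Ppp1r15a at 0.18, and without it they were at 0.29, 0.11, 0.02 and 0.31. The genotype difference in these responses did not pass for any of them, at adjusted p from 0.776 for Trib3 to 0.994 for Slc7a11.

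Among the 5 metabolic enzymes Psat1 was the 1 called. Phgdh, which acts just before Psat1 and shares words with other transcripts, was at -0.02 in controls and 0.03 in S662D mice. The mitochondrial one-carbon enzymes Shmt2 and Mthfd2 were at 0.06 and 0.02 in controls and at 0.08 and 0.18 in S662D mice, and the proline enzyme Aldh18a1 was at 0.03 in both. None of these 4 was called. The 5 enzymes together held 287 CPM ± 12.4 (SD, n = 10) fed and 310.5 ± 11.7 (n = 10) fasted in controls, and Psat1 within them had a mean of 139 CPM fed and 163 fasted.

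**Figure D3:**
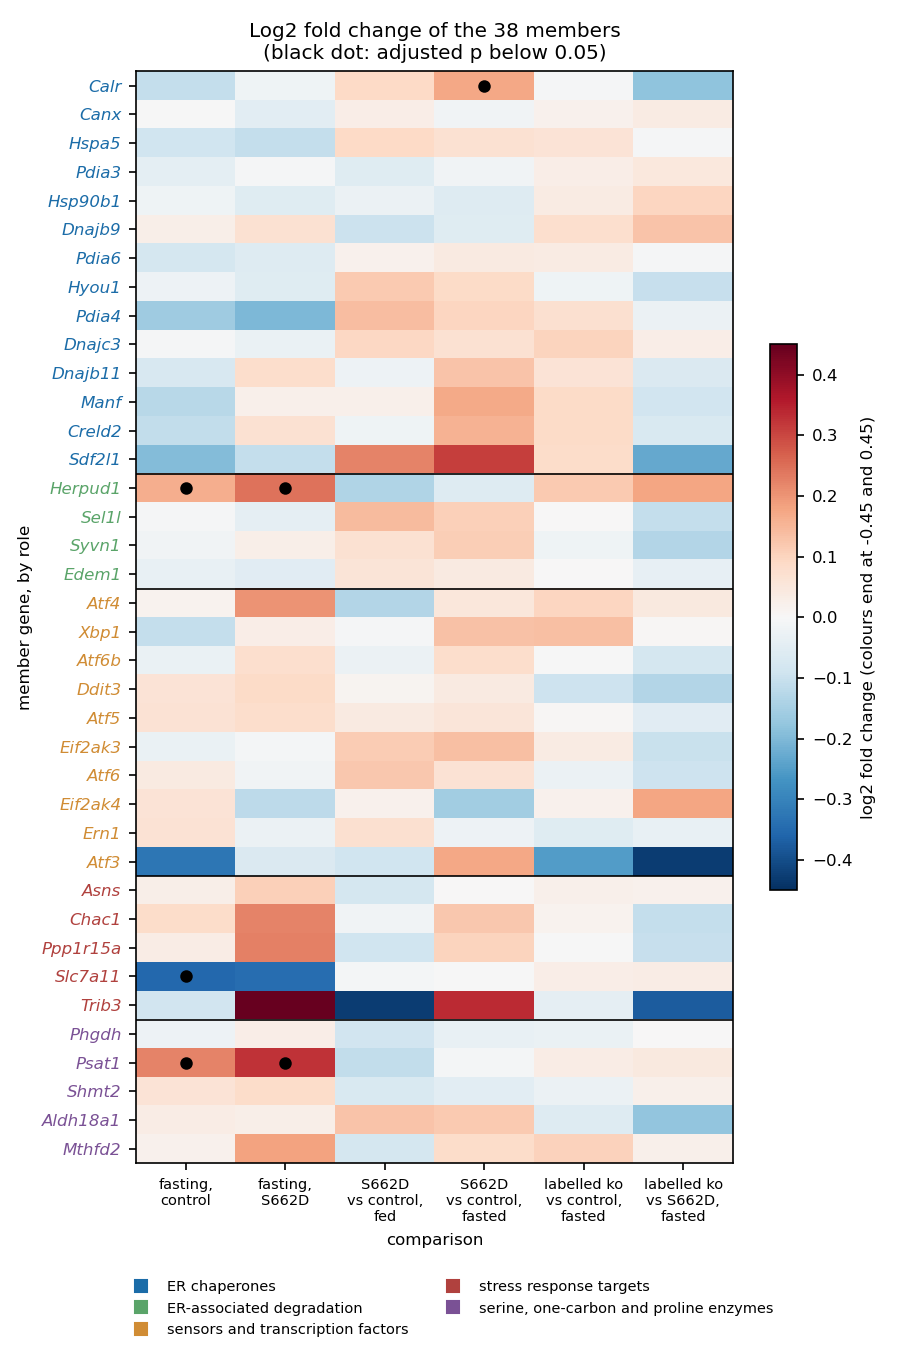
Log2 fold change (colour scale) of each of the 38 members (rows, by role) in 6 comparisons (columns), with a black dot where the adjusted p is below 0.05. Dots mark Psat1 and Herpud1 in both fasting columns, Slc7a11 on fasting in controls and Calr for S662D against control, fasted.

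S662D mice were compared with controls within each feeding state. Fed, 0 of 38 members were called, where 4.69% of all genes were called. The edgeR count at an unadjusted p below 0.05 was 9 of 38 against 21.0% of all genes. DESeq2 called 0 members, where it called 7.5% of all genes. The nearest was Sel1l at 0.14 (adjusted p = 0.0909), with Psat1 at -0.11 and Herpud1 at -0.14 (adjusted p = 0.136 and 0.142). In the libraries with the additional digit alone, set against all controls, 9 members were called, where 16.9% of all genes were called in the same fit. Of these Atf6, Dnajc3, Eif2ak3, Hyou1, Sel1l and Syvn1 were higher and Atf4, Phgdh and Psat1 lower. In the libraries without the digit 0 members were called, where only 0.0854% of all genes were.

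In the fasted state 1 of 38 members was called, Calr, and it was higher, where 5.57% of all genes were called and 3.35% were higher. The unadjusted count was 9 of 38 against 20.8%. Calr, which lies at chr8:84841850-84846934 on the minus strand, ran from 242 through 271 to 296 CPM in fasted controls and stood at 294, 347, 322, 299 and 282 in fasted S662D mice. Of these 3 of 5 were above every fasted control. On the log2 scale Calr was 0.18 higher (SE 0.05, adjusted p = 0.034), and in the fed state it was 0.09 (adjusted p = 0.324), from 281 through 293 to 315 CPM in controls against 288, 324, 317, 334 and 302.

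The Calr call was lost without the libraries that carry the additional digit. The log2 fold change was 0.24 in these (adjusted p = 0.00243), 0.08 in those without (adjusted p = 0.997) and 0.08 with the digit as a term in the fit (adjusted p = 0.74). Only S662D libraries carry the digit, so the fit with the term rests on those without it and is not a separate check. Leaving out fasted S662D mouse 2 gave 0.13 (adjusted p = 0.21), and leaving out S662D mouse 3 or 4 or control 3 of the fasted groups also lost the call. Against controls 1 to 5 alone it was 0.22 and against controls 6 to 10 it was 0.14 (adjusted p = 0.26). With no scaling beyond library size Calr was at 0.13 (adjusted p = 0.11). Eif2ak4 was then the 1 member called, lower, where 5.66% of all genes were called. Endothelial markers summed to a median of 207 CPM in fasted S662D mice and 189 in fasted controls, with 3 of 6 called higher, and over both feeding states to 207 to 241 CPM with the digit and 182 to 207 without. Their part in the Calr result was not tested.

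With the digit alone 10 members were called higher in fasted S662D mice, namely Calr, Dnajb11, Eif2ak3, Hyou1, Manf, Pdia4, Sdf2l1, Sel1l, Syvn1 and Xbp1, and without it 0. In the same fits 17.1% and 0.112% of all genes were called. Over all libraries, Manf was at 0.17 (adjusted p = 0.0739), the kinase Eif2ak4 at -0.16 (adjusted p = 0.0605) and Sdf2l1, part of an ER chaperone complex, at 0.31 (adjusted p = 0.192). Eif2ak4 stood at 29.5, 27.6, 28.8, 26.4 and 26.1 CPM in fasted S662D mice against 28.2 through 31.5 to 34.1 in fasted controls, with 3 of 5 below every control. Of the 14 chaperones, 10 were above 0 with a median log2 fold change of 0.08. The median was 0.15 with the digit and -0.02 without it (8 of 14 below 0), so the direction turned with the libraries used. With the digit as a term in the fit the median was -0.01 (7 of 14 below 0). That is not a separate check, since only S662D libraries carry the digit. Sdf2l1 was at 0.51 with the digit and -0.03 without.

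In the libraries labelled Per2 ko 0 of 38 members were called against fasted controls, where 0.0277% of all genes were called. At an unadjusted p below 0.05 it was 2 of 38 against 6.07%, namely Xbp1 at 0.14 and Herpud1 at 0.12. DESeq2 called 0 members, where it called 0.0388% of all genes. Of the 14 chaperones, 12 were above 0 with a median log2 fold change of 0.06, none called. Herpud1, Psat1 and Atf4 had means of 102 CPM ± 5.44, 167 ± 4.55 and 127 ± 2.80 (SD, n = 5) against 93.4 ± 6.2, 163 ± 10.1 and 119 ± 10.6 (n = 10). Against fasted S662D mice 0 of 38 were called, where 7.34% of all genes were called, and the unadjusted count was 7 of 38 against 22.4%. DESeq2 called 2 there, where it called 9.53% of all genes. These were Eif2ak4, higher, and Calr, lower, which edgeR placed at 0.18 and -0.18 (adjusted p = 0.058 and 0.0525).

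Other genes of the same pathways, 127 of 130 listed, were tested for comparison. Fasting called 4 higher and 1 lower in controls and 2 higher in S662D mice, and the difference of responses 0. The share called over all 18063 genes was 3.88% in controls, 2.64% in S662D mice and 0% for the difference. Whether the list as a whole departs from that share was not tested, and the called genes are described singly. Gpt2, the mitochondrial alanine aminotransferase, rose by 0.43 in controls and 0.53 in S662D mice (adjusted p = 3.52e-05 and 0.000354). Gpt2 ran from 65.1 through 68.6 to 75.3 CPM in fed and 73.1 through 98.1 to 108 in fasted controls. Slc7a5, the large neutral amino acid transporter, rose by 0.23 and 0.38 (adjusted p = 0.00214 and 0.000397). Cbs, the first enzyme from homocysteine towards cysteine, rose by 0.25 in controls (adjusted p = 0.00788), while its S662D value was 0.27 (adjusted p = 0.0814). The glycine transporter Slc6a9 fell by 0.18 (adjusted p = 0.0224) and the ER disulfide reductase Dnajc10 rose by 0.10 (adjusted p = 0.0429) in controls. Dnajc10 kept its call in 11 of 31 alternatives and missed it in 15 of the 20 fits that dropped a single control, with log2 fold changes from 0.03 to 0.16 over the alternatives. Slc6a9 kept its call in 25 of 31 (-0.32 to -0.04). In controls Gpt2 and Cbs each kept theirs in 30 and Slc7a5 in 29. In S662D mice Gpt2 kept its call in 20 of 21 alternatives (0.26 to 0.70) and Slc7a5 in 19 (0.28 to 0.45).

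These calls also varied with the control set. In controls 1 to 5 alone 11 pathway genes were called on fasting, and in controls 6 to 10 alone 0, where 7.4% and 1.71% of all genes were called. Among the 19 aminoacyl-tRNA synthetases, many of them ATF4 targets, 18 were above 0 on fasting in both genotypes. Their medians were 0.04 and 0.06, and 0 were called. The count of signs is a description, and any part of ATF4 in it was not tested. S662D mice differed from controls in both feeding states for Mthfd1l, the mitochondrial formate-producing enzyme (-0.41 fed and -0.37 fasted, adjusted p = 1e-04 and 0.000452), and for Gcn1l1, the activator of GCN2 (0.25 and 0.18, adjusted p = 0.00716 and 0.0442). The Mthfd1l calls held in all 28 alternatives of each comparison. The Gcn1l1 call was lost in 5 of 28 alternatives fed and in 17 of 28 fasted, 9 of these by leaving out 1 library, with values down to 0.08 and 0.03.

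Most other chaperones correlated positively with Hspa5 from mouse to mouse. After group and library set were taken out, log2 CPM of Hspa5 was compared with that of the other 37 members over the 35 libraries (permutation test within 9 strata, 100000 draws, p adjusted over the 37). For 11 of 37 the correlation was positive with an adjusted p below 0.05, 9 of them among the 13 other chaperones, and the rest were Xbp1 and Aldh18a1. Dnajc3, Manf, Canx and Dnajb9 did not pass, at adjusted permutation p of 0.0743, 0.138, 0.138 and 0.242. The lowest r among the 11 was 0.448, a value reached by 1% of all 18062 other genes, whose median r with Hspa5 was -0.01, given as a description with no test. For 0 of 37 was the correlation negative with an adjusted p below 0.05. By rank (Spearman's rho) Hyou1, 1 of the 11, did not pass, at an adjusted permutation p of 0.0586.

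The highest were Pdia4 (r = 0.805, rho = 0.805, permutation p = 1e-05, the smallest the draws can give, adjusted 0.000185), Sdf2l1 (r = 0.760, adjusted permutation p = 0.000277), Xbp1 (r = 0.721), Creld2 (r = 0.716) and Hsp90b1 (r = 0.698). Without the 2 libraries farthest from the median of Hspa5 these were 0.729, 0.717, 0.650, 0.728 and 0.602. For Aldh18a1, Dnajb11 and Hyou1, the weakest of the 11 that passed, r was then 0.426, 0.335 and 0.479. Over the 10 S662D libraries alone their r was 0.111, 0.358 and 0.096, and that of Xbp1 was 0.383. The lowest were Atf3 at -0.276, Eif2ak3 at -0.250 and Ern1 at -0.200. The median r was 0.661 for the chaperones, 0.280 for the degradation genes, 0.066 for the stress targets and 0.017 for the sensors and factors. The libraries share depth and tissue make-up, and scaling by library size alone left the median over the 37 at 0.284 against 0.303.

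**Figure D4:**
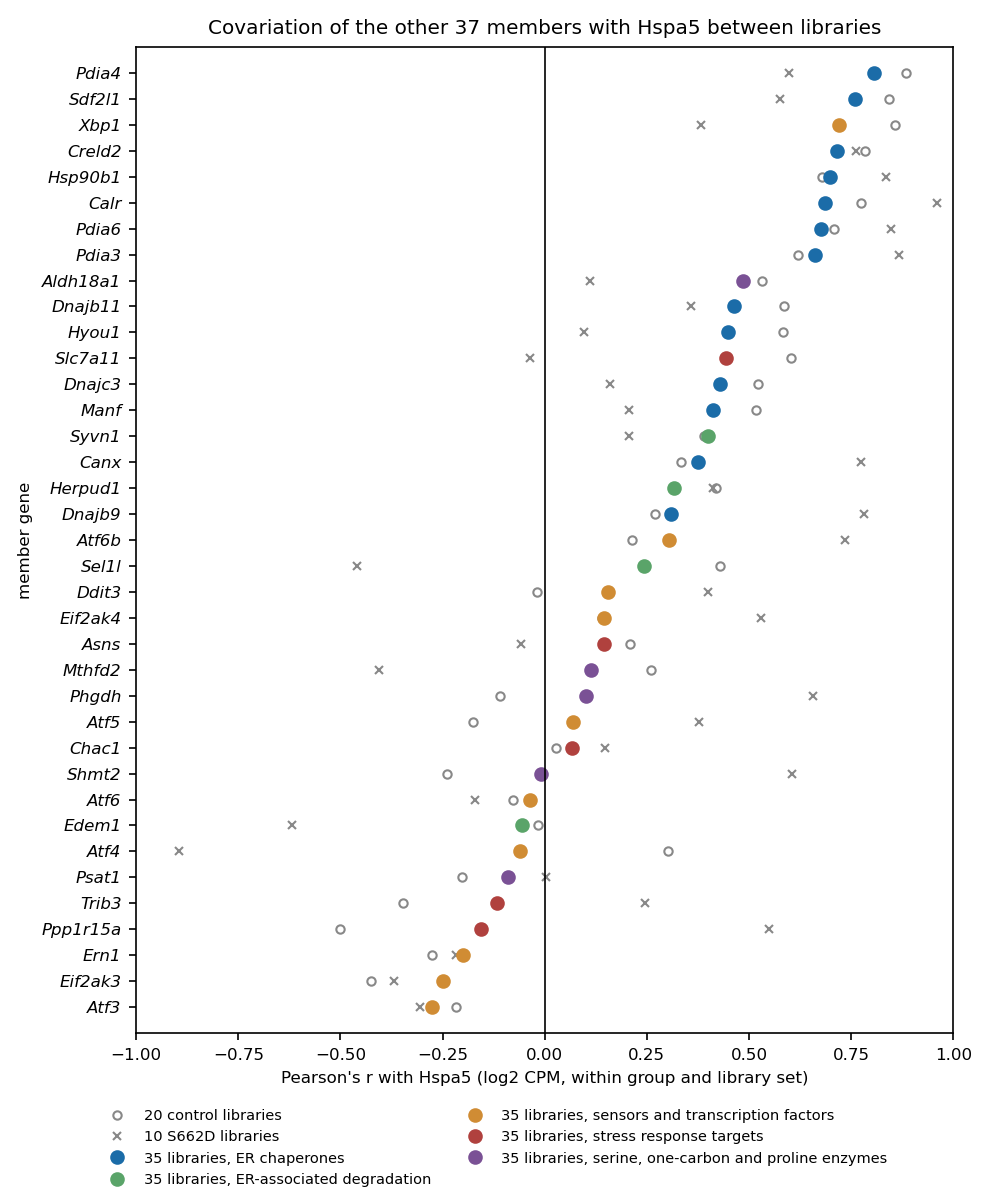
Pearson's r (x axis) of each of the other 37 members with Hspa5, from log2 CPM within group and library set. Filled points, coloured by role, are over 35 libraries, open circles over the 20 control and crosses over the 10 S662D libraries, and the filled points of the chaperones lie between 0.308 and 0.805.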

How the data were processed

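Poly(A) RNA of 35 hypothalamus samples was sequenced as paired reads. Per the submitters' processing notes, reads were aligned to mm10 with STAR 2.7.10b and counted with featureCounts 2.0.1. The deposited values are raw counts per gene name, with multi-mapping reads counted and no strand option per the file headers. All 35 libraries were fitted in 1 edgeR 4.0.16 quasi-likelihood model (R 4.3.3, limma 3.58.1) with TMM scaling and filterByExpr (minimum count 10), common coefficient of variation 0.09, and Benjamini-Hochberg adjustment over 18063 genes in each of 7 comparisons. Fold changes are log2, levels are CPM with TMM scaling, and intervals cover 95%. Alternatives included DESeq2 1.42.0, other scalings and filters, left-out libraries and library sets. The fit was tested on simulated data. Replicates are labelled as separate samples, with no animal named, so p-values measure only the spread between these samples, which may be technical. Members and lists were chosen with earlier results of these data known. Named were all called members, and pathway genes called on fasting or in both S662D comparisons. Leaving out choroid plexus libraries was chosen after seeing the data. Total counts per library ran from 17959586 to 37027342, and no libraries were duplicates.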

Additional observations from a re-analysis of the deposited data

Results flagged for a closer look

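In 10 of 195 gene and group pairs (38 members and Per2, each in 5 groups) 1 library stood farther from the rest than a gap test at the 95% level allows. That is 5.13%, where chance gives about 1 in 20.

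The lowest library of its group was far from the next for Pdia6 in fed S662D mouse 3 (110 CPM), Calr in the mouse labelled Per2 ko 2 (218 CPM against 276 for the next), Manf in fasted control 3 (32.7 against 40.5 CPM) and Phgdh in fasted control 5 (79.8 against 88.7 CPM). The highest was far from the next for Dnajb9 in fasted control 5 (66.5 against 58.5 CPM), Creld2 in fasted S662D mouse 2 (22.8 against 17.2 CPM) and Trib3 in fed control 2 (1.06 against 0.655 CPM). The same held for Asns in fed S662D mouse 1 (102 CPM), Psat1 in the mouse labelled Per2 ko 5 (175 CPM) and Per2 in fed control 9 (32.6 CPM). Fasted control 5 appears for Dnajb9 and Phgdh, and the other 8 libraries once each.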

How the results depend on the processing

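No called direction reversed. Leaving out 1 library at a time, the members called numbered 2 to 3 on fasting in controls, 1 to 3 on fasting in S662D mice, 0 in every fit for the difference of responses, 0 to 3 for S662D against control both fed and fasted, 0 for the Per2 ko label against control, and 0 to 2 for it against S662D. Over all genes the share called in these fits was 3.17% to 4.35% on fasting in controls, 1.71% to 3.21% in S662D mice and 0% for the difference. It was 0.362% to 9.15% for S662D against control fed and 0.845% to 9.89% fasted. For the Per2 ko label it was 0.022% to 0.0277% against control and 2.86% to 10.2% against S662D. On fasting in S662D mice 1 was called, not 2, with no scaling (3.27% of all genes) and with only the groups compared (1.6%). It was also 1 without the choroid plexus libraries (1.23%), and 0 in libraries without the digit (0.0373%). Fasting in controls gave 1 without the choroid plexus libraries (2.34% of all genes). The difference of responses gave 1 (Ppp1r15a) with controls 1 to 5 alone, where 2.73% of all genes were called. S662D against control, fed, gave 1 with only the groups compared (5.86% of all genes), 9 with the digit (16.9%) and 1 against controls 1 to 5 (9.79%). The same contrast fasted gave 3 in DESeq2, 0 with only the groups compared, 10 with the digit, 0 without it, 0 with the digit as a term, 4 against controls 1 to 5, 0 against controls 6 to 10 and 3 without the choroid plexus libraries. The Per2 ko label against S662D gave 2 in DESeq2 (9.53% of all genes), 2 with no scaling (7.03%) and 1 with the strict filter (8.44%). It gave 5 with the digit (16.2%), 1 without it (0.139%) and 1 without the choroid plexus libraries (7.7%). With no scaling S662D against control, fasted, also gave 1 (5.66% of all genes), with Eif2ak4 in place of Calr. The cause was not tested. Of all genes called, 44.4% were higher on fasting in S662D mice with no scaling (67.6% with RLE size factors) and 25.3% for S662D against control, fasted (61.6%).

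Same-numbered libraries of different groups were not close over all genes (r from -0.191 to 0.236). Such values cannot exclude a pairing by number, and the labels name none. With the replicate block, 4 members were called on fasting in controls (3.32% of all genes), Pdia4 being gained as lower, and 1 on fasting in S662D mice (2.18%). For S662D against control 2 were called fed (13.5%) and 1 fasted (7.6%), and 0 members elsewhere. Over all genes the block called 2347 and not 847 for S662D against control, fed, and 227 and not 1325 for the Per2 ko label against S662D.

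Counts over all genes moved more than 1.5 times with the libraries used. Fasting in controls called 701 in all, 1315 in controls 1 to 5 and 304 in controls 6 to 10. Fasting in S662D mice called 476 in all, 7 without the digit and 311 without fasted mouse 2. S662D against control called 847 fed and 1007 fasted, 3106 and 3148 with the digit, 16 and 21 without it, 1741 and 1680 against controls 1 to 5 and 33 and 48 against controls 6 to 10. Leaving out 1 library gave 66 to 1667 fed and 154 to 1802 fasted, lowest without mouse 4 and highest without mouse 1 of the S662D group. The Per2 ko label against S662D called 1325 in all, 2986 with the digit, 26 without it, 476 with only the groups compared, and 521 to 1857 on leaving out 1 library, lowest without fasted S662D mouse 4 and highest without fasted S662D mouse 1. The difference of responses called 0 in all and 486 with controls 1 to 5. Depth limits Trib3 and Atf3, with at most 24 and 45 reads per library.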

Other observations

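Atf4 followed Hspa5 with opposite signs in the genotypes, while Calr was positive in both. This description was chosen after the values were seen and is given with no test. Over the 20 control libraries r with Hspa5 was 0.301 for Atf4 and 0.774 for Calr, and over the 10 S662D libraries it was -0.895 and 0.959. A change of sign was not particular to Atf4. Among others, r in controls and S662D mice was -0.502 and 0.548 for Ppp1r15a, 0.429 and -0.459 for Sel1l, and -0.239 and 0.604 for Shmt2. Means were taken out separately for the libraries with and without the additional digit. Each S662D group held 3 libraries with it and 2 without, so few values stand behind these r.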
